A study of Mus musculus with 4 samples.

Results

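The comparison is between the liver of a Cyp27a1 global knockout mouse (Cyp27a1 KO) and the liver of a wild-type mouse (WT), with 1 library on each side. It takes 2 of the 4 libraries of the series; the other 2 are a Cyp27a1 and Cyp3a double knockout (DKO) and a Cyp3a knockout (Cyp3a KO). All 4 mice were male, lived on standard chow and carried no treatment besides their genotype. The labels give the second deleted locus by the human name Cyp3a4, whereas mice carry a Cyp3a gene family, and they state neither the exons removed from Cyp27a1 nor the strain background or age. The genes described are the 11743 of 33639 in the deposited table whose mean over the 4 libraries was at least 1 CPM, counts per 1000000 counts after scaling. With 1 animal per genotype no replicate spread exists, so no p-value is given and each difference is between these livers.

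Bile acids are made from cholesterol in hepatocytes. The classic pathway opens with 7-alpha-hydroxylation by Cyp7a1, the alternative pathway opens with side chain hydroxylation by Cyp27a1, and Cyp27a1 also starts side chain shortening in the classic pathway. Bile acids returning from the gut act through the nuclear receptor FXR (Nr1h4) and its target SHP (Nr0b2) to lower Cyp7a1 transcription. Bile alcohols and other sterol intermediates can activate the xenobiotic receptor PXR (Nr1i2), which induces Cyp3a genes.

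A gene was called higher or lower in the Cyp27a1 KO where CPM plus 0.5 differed at least 2-fold and the ratio of counts had an exact 95% interval that excluded 1. Intervals printed after a fold are these intervals, and they cover counting error alone. The interval condition removed none of the genes that met the 2-fold condition. Library totals lay between 49745860 and 50378101 counts, so 1 count was worth 0.0185 to 0.0214 CPM. Albumin RNA took 3.78% of counts in the Cyp27a1 KO and 6.79% in WT, and mitochondrial genes took 5.72% in the Cyp27a1 KO and 5.53% in WT. All 10 hepatocyte markers were measured in all 4 libraries. Between the Cyp27a1 KO and WT 0 of them passed the rule, but 9 lay below WT, with a median log2 fold of -0.33 and a sum of 77449 CPM in the Cyp27a1 KO and 119886 CPM in WT. Alb alone gave 37953 CPM of the Cyp27a1 KO sum and 72499 CPM of the WT sum, so most of the gap is Alb.

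Against this rule, 287 genes were higher (2.44% of the 11743 measured) and 160 were lower (1.36%) in the Cyp27a1 KO library, set against WT. The counts of calls in every gene list below are to be read beside these shares. In bulk tissue fewer cells of a type and less RNA per cell cannot be told apart. The median log2 fold was 0.00, and 10351 genes (88.1%) lay within 1.5-fold of WT. Higher calls made up 64.2% of all calls on scaled counts, 70.9% with scaling to the library total and 77.6% on the deposited TPM (transcript abundance corrected for length), a scale on which the median gene itself stood at 0.17. Of the 287 higher genes 262 were annotated as protein coding and 23 as pseudogenes, and of the 160 lower genes 149 were protein coding and 9 pseudogenes. Among the 247 genes with a mean of at least 500 CPM, 15 were higher and 13 were lower, whereas among the 2218 genes between 50 and 500 CPM 71 were higher and 14 were lower.

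**Figure D1:**
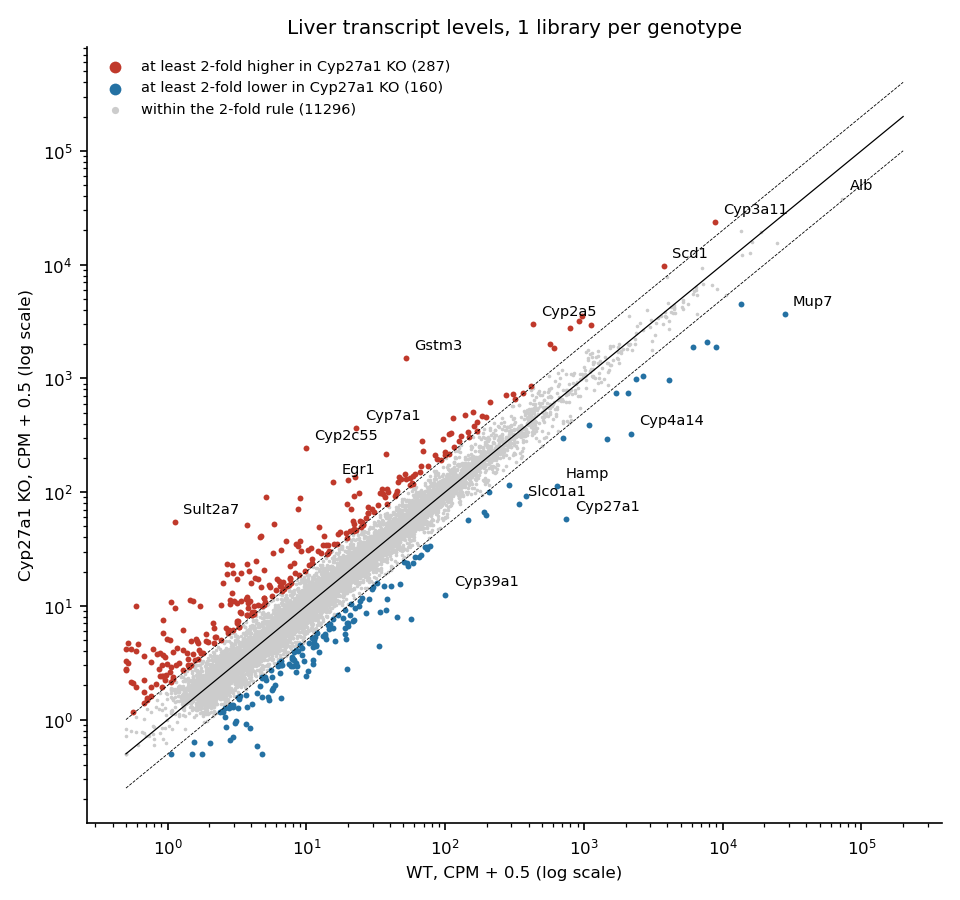
Each point is 1 of 11743 measured genes, with CPM plus 0.5 in the Cyp27a1 KO library on the vertical log axis and in the WT library on the horizontal log axis; the solid line marks equal levels and the dashed lines 2-fold. The 287 genes called higher (red) include Sult2a7, Gstm3 and Cyp7a1, and the 160 called lower (blue) include Cyp27a1, Cyp39a1 and Mup7.

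The largest losses in CPM were those of abundant secretory transcripts. The 10 genes with the largest losses summed to 79710 CPM in the Cyp27a1 KO and 185161 CPM in WT, and they comprised Alb, the serum albumin gene, Serpina1c and Serpina1e, which encode alpha-1-antitrypsins, Gm21320, and 6 major urinary protein genes. Alb had 37953 CPM in the Cyp27a1 KO and 65721 CPM in the DKO, against 40344 CPM in the Cyp3a KO and 72499 in WT. The level of Alb was thus low in both single knockouts and high in the DKO and WT, so it did not separate livers by their Cyp27a1 genotype. The 10 largest gains summed to 85956 CPM in the Cyp27a1 KO and 41451 CPM in WT: Cyp3a11, Mup19, Scd1, Bhmt, Gstm1, Cyp2a5, C3, Car3, Aldh1a1 and Cyp2c29.

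Cyp27a1 itself (chr1:74713574-74737892, mm10, plus strand) had 57.6 CPM in the Cyp27a1 KO and 65.3 CPM in the DKO, against 727 CPM in the Cyp3a KO and 746 in WT. Both libraries labelled as lacking it stood at about the same remainder, and 7.73% of the WT level was left in the Cyp27a1 KO. Counts and TPM differed on how deep the loss was: the log2 fold was -3.68 by counts and -3.05 by TPM. Counts divided by TPM give the transcript length that the quantification assigned to a gene, here set to 1 for the median gene of each library. That relative length was 0.523 in the Cyp27a1 KO and 0.527 in the DKO, against 0.703 in the Cyp3a KO and 0.716 in WT. The Cyp27a1 KO value was 0.730 of the WT value and the DKO value was 0.749 of the Cyp3a KO value. Of 8922 genes with a mean of at least 5 CPM, 59 (0.661%) had a ratio as low as that of Cyp27a1, and the 5th to 95th percentiles were 0.869 to 1.13. GENCODE lists 3 Cyp27a1 transcripts, the coding one of 1892 bases with 9 exons and a pair of retained-intron transcripts of 784 and 645 bases with 3 exons each. Which exons held the remaining reads cannot be read from gene totals.

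Most bile acid genes lay within the rule, with large departures at a few steps. Of 73 genes listed across synthesis, side chain processing, uptake, export and regulation, 71 were in the table and 65 passed the filter. Of those 65, 7 were higher, 5, with Cyp27a1 itself, were lower and 53 lay within the rule, with a median log2 fold of 0.09. Over all measured genes 2.44% were higher and 1.36% lower, so calls both ways were more frequent among the bile acid genes. The 6 listed genes below the filter were Cyp46a1, Ch25h, Slc51a, Slc51b, Gpbar1 and Vdr, among which Slc51b, a subunit of the basolateral organic solute transporter, had 4 counts in the Cyp27a1 KO and 107 in the DKO, against 2 in the Cyp3a KO and 15 in WT.

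The classic pathway opened far above WT. Cyp7a1 (chr4:6265612-6275633, minus strand), its rate-limiting enzyme, had 362 CPM in the Cyp27a1 KO and 173 CPM in the DKO, against 41.3 CPM in the Cyp3a KO and 22.4 in WT. Both livers without Cyp27a1 stood above both livers with it, and the Cyp27a1 KO to WT fold was 16.2 (15.2 to 17.2). Akr1d1, the 5-beta-reductase that sets the bent ring shape of bile acids, had 310 CPM in the Cyp27a1 KO and 619 CPM in the DKO, against 283 CPM in the Cyp3a KO and 130 in WT. Here WT alone was low, and the Cyp3a KO was close to the Cyp27a1 KO. Cyp8b1, the sterol 12-alpha-hydroxylase that directs synthesis to cholic acid, had 742 CPM in the Cyp27a1 KO and 421 CPM in the DKO, against 663 CPM in the Cyp3a KO and 467 in WT, a 1.59-fold difference (1.56 to 1.62) between the Cyp27a1 KO and WT that lay within the rule. Hsd3b7, the C27 sterol 3-beta-dehydrogenase, and the aldo-keto reductases Akr1c6 and Akr1c14 had log2 folds of 0.38, 0.46 and 0.62. Cyp2c70, the muricholic acid forming enzyme of mice, had 298 CPM in the Cyp27a1 KO and 310 CPM in the DKO, against 241 CPM in the Cyp3a KO and 514 in WT. Its level was thus lower in all 3 knockouts than in WT, at 58.0% of WT in the Cyp27a1 KO, which lay within the rule.

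In the alternative and oxysterol branch 2 of 8 measured genes were lower, Cyp27a1 itself and Cyp39a1, and 0 were higher. Cyp39a1, which 7-alpha-hydroxylates 24-hydroxycholesterol (chr17:43667425-43751431, plus strand), had 12.0 CPM in the Cyp27a1 KO and 52.7 CPM in the DKO, against 13.4 CPM in the Cyp3a KO and 99.7 in WT. It was low in both single knockouts and its DKO level lay between them and WT, so its level did not follow Cyp27a1 genotype alone. Cyp7b1, the oxysterol 7-alpha-hydroxylase that acts after Cyp27a1, had 150 CPM in the Cyp27a1 KO and 15.4 CPM in the DKO, against 209 CPM in the Cyp3a KO and 231 in WT. Its Cyp27a1 KO level was 64.9% of WT and within the rule, while the DKO stood far below the other 3 livers. Fdxr and Fdx1, the electron carriers of mitochondrial P450 enzymes, had log2 folds of 0.72 and 0.35, the sterol-binding Stard5 had 0.00, and Star, which brings cholesterol into mitochondria, had -0.53 at 1.43 CPM in the Cyp27a1 KO and 2.27 CPM in WT. The enzymes that shorten and conjugate the side chain were close to WT: 12 of 13 lay within the rule, and the list median was 0.06. Acox2, the branched-chain acyl-CoA oxidase, had a log2 fold of 0.32, Slc27a5, the bile acyl-CoA synthetase, had 0.22, Baat, the amino acid conjugating enzyme, had 0.17, and Amacr, the racemase, had 0.11. Acnat2, a peroxisomal acyl-CoA N-acyltransferase related to Baat, was the exception, with 10.98 CPM in the Cyp27a1 KO and 21.8 CPM in the DKO, against 14.1 CPM in the Cyp3a KO and 37.8 in WT.

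Transport genes differed mainly on the blood-facing side of the hepatocyte. Abcc4, a basolateral exporter of bile acids and sulfated steroids, had 22.7 CPM in the Cyp27a1 KO and 20.7 CPM in the DKO, against 3.40 CPM in the Cyp3a KO and 3.24 in WT. The livers fell into 2 levels by Cyp27a1 genotype, and the Cyp27a1 KO to WT fold was 6.99 (5.90 to 8.34). Abcc3, another basolateral exporter, had 624 CPM in the Cyp27a1 KO and 827 CPM in the DKO, against 741 CPM in the Cyp3a KO and 211 in WT, so WT stood apart from all 3 knockouts. Slco1a4, an organic anion uptake carrier, showed the same order of groups, with 292 CPM in the Cyp27a1 KO and 541 CPM in the DKO, against 330 CPM in the Cyp3a KO and 96.1 in WT. Ephx1, the microsomal epoxide hydrolase, listed here for a reported role in bile acid uptake, was 2.06-fold higher (2.02 to 2.10). Slco1a1, a male-predominant uptake carrier, had 78.2 CPM in the Cyp27a1 KO and 1.94 CPM in the DKO, against 478 CPM in the Cyp3a KO and 341 in WT, and was 4.37-fold lower (4.22 to 4.52) than in WT. The main sodium-dependent uptake carrier Slc10a1 had a log2 fold of 0.12 and Slco1b2 had 0.22. On the bile-facing side none of the canalicular pumps passed the rule: Abcb11, the bile salt export pump, had 0.20, Abcc2 had 0.06, the sterol transporter subunits Abcg5 and Abcg8 had -0.26 and -0.20, and the phosphatidylcholine floppase Abcb4 had -0.35.

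Among 15 regulators, 1 was higher and 1 lower. Nr0b2, which encodes the repressor SHP, had 7.87 CPM in the Cyp27a1 KO and 24.3 CPM in the DKO, against 46.3 CPM in the Cyp3a KO and 16.3 in WT. Its log2 fold of -1.01 lay at the edge of the rule and was -0.85 by TPM; with scaling to the library total it was -0.92, and on neither of these scales was Nr0b2 called. Onecut1, the liver and bile duct factor HNF6, had 71.1 CPM in the Cyp27a1 KO and 11.1 CPM in the DKO, against 10.2 CPM in the Cyp3a KO and 20.4 in WT, so it was high in the Cyp27a1 KO liver alone. Nr1h4 itself had a log2 fold of -0.07, the FGF15 receptor components Fgfr4 and Klb had 0.12 and 0.09, Nr5a2, which encodes LRH-1, had 0.16, and Hnf4a had -0.36. A separate list of 11 measured FXR targets had 1 higher, 1 lower and a median of -0.08. Its higher member was Pltp, the plasma phospholipid transfer protein, with 128 CPM in the Cyp27a1 KO and 113 CPM in the DKO, against 47.0 CPM in the Cyp3a KO and 19.5 in WT.

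**Figure D2:**
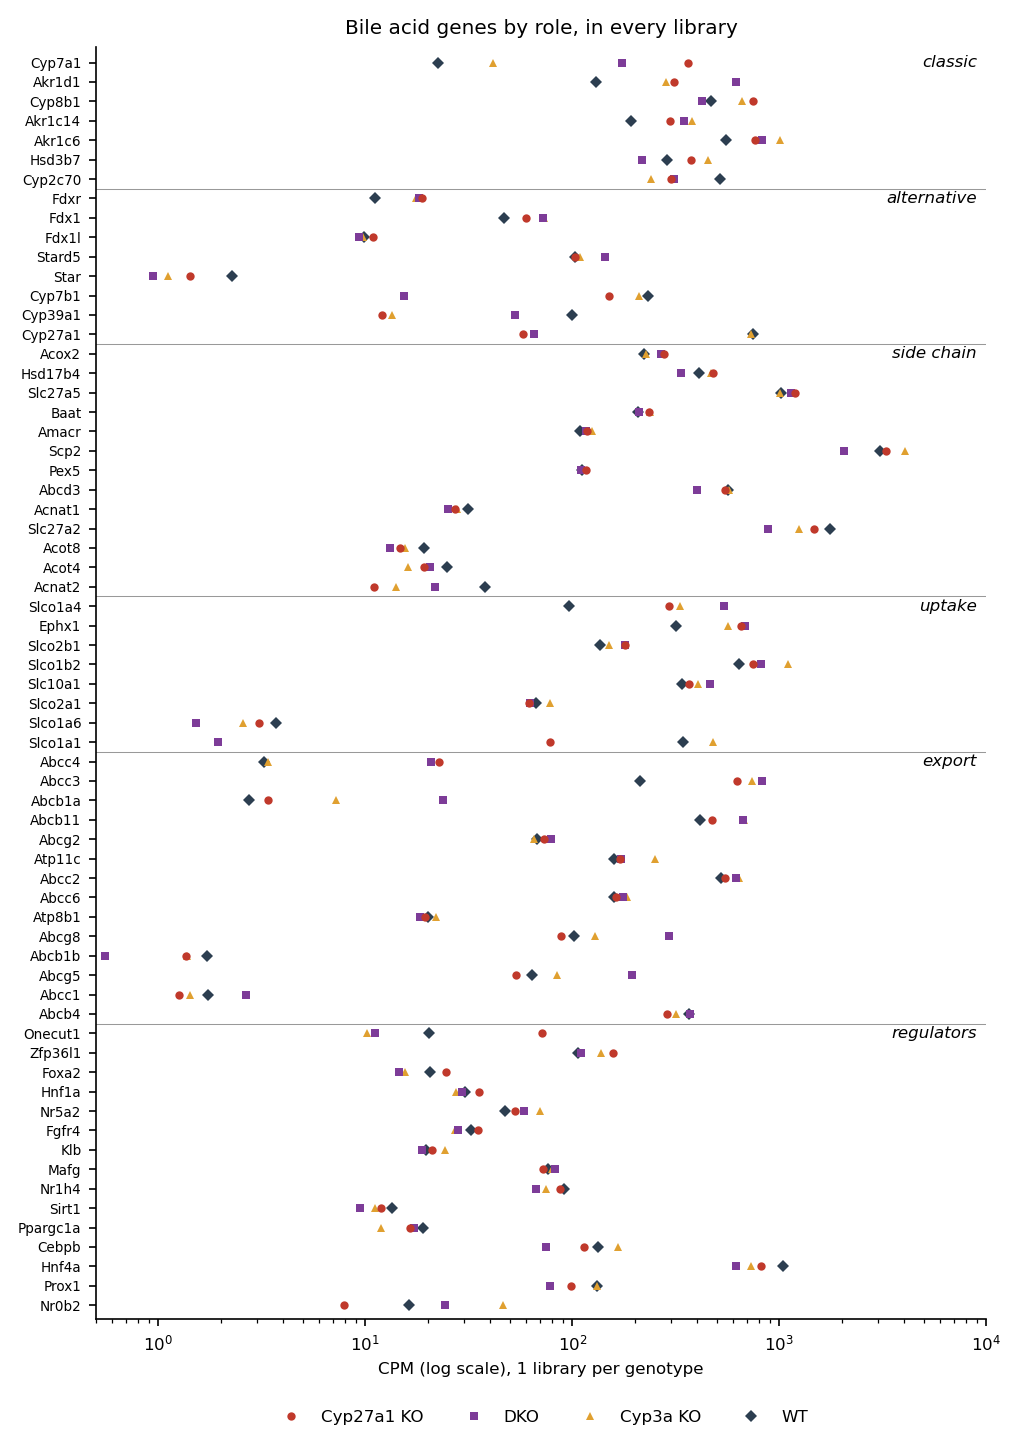
CPM on a log axis of the 65 measured bile acid genes, grouped by role and sorted within a role by their Cyp27a1 KO to WT fold, with 1 point per library. Cyp7a1 and Abcc4 lie higher in the Cyp27a1 KO and DKO than in the Cyp3a KO and WT, Cyp39a1 and Acnat2 lie lowest in both single knockouts, and most other genes have their points close together.

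The Cyp3a and Cyp2c genes, which encode drug and steroid hydroxylases, had the largest shares of higher calls among the P450 lists. Of 21 measured members 13 were higher and 0 lower, with a median log2 fold of 1.17. Cyp3a11 had 23706 CPM in the Cyp27a1 KO and 8742 CPM in WT; in the livers with the Cyp3a locus deleted it had 4.76 CPM (DKO) and 0.160 CPM (Cyp3a KO). Cyp3a59 had 283 CPM in the Cyp27a1 KO and 67.6 CPM in WT, and Cyp3a13 had 216 CPM in the Cyp27a1 KO and 106 CPM in WT. The lowest fold in the family was that of Cyp3a25, with 1013 CPM in the Cyp27a1 KO and 677 CPM in WT. Cyp2c55 had 243 CPM in the Cyp27a1 KO and 1016 CPM in the DKO, against 455 CPM in the Cyp3a KO and 9.37 in WT, so all 3 knockouts lay far above WT and the DKO highest. Cyp2c29 had 2965 CPM in the Cyp27a1 KO and 8631 CPM in the DKO, against 4649 CPM in the Cyp3a KO and 1129 in WT, the same order. Cyp2c67 had 281 CPM in the Cyp27a1 KO and 193 CPM in the DKO, against 276 CPM in the Cyp3a KO and 125 in WT. Cyp2c40, by contrast, had 36.5 CPM in the Cyp27a1 KO and 80.9 CPM in the DKO, against 161 CPM in the Cyp3a KO and 6.58 in WT, so the Cyp3a KO was highest there. Cyp2c37 was one of the few below WT, at 158 CPM in the Cyp27a1 KO and 235 CPM in WT, and with Cyp3a25 it was named after its values were seen. These genes are close copies, reads can be assigned to more than 1 of them, and the members are therefore not separate observations.

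Since many Cyp3a and Cyp2c genes were higher together, their promoters were searched for short motifs. RefSeq promoter sequences of GRCm38.p6, from 250 bases before to 50 bases after the start, were given for 22 of these genes. The motif CAAAGTCCA, bound by HNF4 proteins, lay in 10 of the 22, against 0.475% of all 32851 promoters in the table, on either strand. It stood in 12 of the 270 promoters of genes called higher (4.44%) and in 1 of the 126 promoters of genes called lower (0.794%). Promoters of Cyp3a11, Cyp3a16, Cyp3a41b, Cyp2c40, Cyp2c67 and Cyp2c69 are in both the 10 and the 12, so these counts are not separate. Close gene copies also share promoter sequence, as those of Cyp2c67 and Cyp2c40 below do, so the 10 are not separate finds. Within these families the motif did not separate called from uncalled genes. The 10 genes were Cyp3a11, Cyp3a16, Cyp3a41a, Cyp3a41b, Cyp2c40, Cyp2c65, Cyp2c67, Cyp2c68, Cyp2c69 and Cyp2c70, so the motif was also found in genes that were not called, in Cyp2c70, which was lower than WT, and not in Cyp2c55 or Cyp2c29. The 3 promoters below show it in capitals. They are Cyp3a11 (chr5:145879805-145880104, minus strand), Cyp2c67 (chr19:39648993-39649292, minus strand) and Cyp2c40 (chr19:39812765-39813064, minus strand), each printed 5′ to 3′ along the gene; the capitals begin 109, 125 and 45 bases before the start.
Cyp3a11: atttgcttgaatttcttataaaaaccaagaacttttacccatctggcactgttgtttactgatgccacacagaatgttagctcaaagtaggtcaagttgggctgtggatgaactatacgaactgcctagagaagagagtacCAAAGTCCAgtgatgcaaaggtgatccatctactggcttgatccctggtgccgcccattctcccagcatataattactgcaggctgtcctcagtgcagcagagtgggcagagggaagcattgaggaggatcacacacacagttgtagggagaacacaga
Cyp2c67: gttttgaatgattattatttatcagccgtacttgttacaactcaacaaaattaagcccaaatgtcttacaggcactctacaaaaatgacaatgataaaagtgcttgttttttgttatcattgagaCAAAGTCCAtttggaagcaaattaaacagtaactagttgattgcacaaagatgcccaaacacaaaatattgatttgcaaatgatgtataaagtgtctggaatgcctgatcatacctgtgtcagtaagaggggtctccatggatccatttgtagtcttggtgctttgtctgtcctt
Cyp2c40: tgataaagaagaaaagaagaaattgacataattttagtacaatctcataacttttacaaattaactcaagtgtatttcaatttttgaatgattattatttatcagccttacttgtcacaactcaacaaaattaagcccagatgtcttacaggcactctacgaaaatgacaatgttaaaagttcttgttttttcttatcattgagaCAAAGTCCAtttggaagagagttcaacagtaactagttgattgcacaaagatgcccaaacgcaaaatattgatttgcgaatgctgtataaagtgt

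Outside these families the P450 genes were mixed. Cyp2a5, the coumarin 7-hydroxylase, had 3004 CPM in the Cyp27a1 KO and 7400 CPM in the DKO, against 1310 CPM in the Cyp3a KO and 427 in WT. Each loss of Cyp27a1 was accompanied by a higher level, 7.04-fold (6.93 to 7.14) over WT in the first pair and a log2 fold of 2.50 for the DKO over the Cyp3a KO in the second. Cyp2a22 and Cyp2a4 were also called higher but stood at 4.66 CPM and 1.93 CPM in the Cyp27a1 KO and below 0.5 CPM in WT, and Cyp2a genes share reads as well. Cyp2b10, a CAR target, had 223 CPM in the Cyp27a1 KO and 995 CPM in the DKO, against 353 CPM in the Cyp3a KO and 99.3 in WT. Of 13 measured Cyp4 genes, which hydroxylate fatty acids, 1 was higher and 3 were lower. Cyp26a1, the retinoic acid hydroxylase, had 30.8 CPM in the Cyp27a1 KO and 38.6 CPM in the DKO, against 9.77 CPM in the Cyp3a KO and 6.05 in WT, so the livers separated by Cyp27a1 genotype. The transcripts of the receptors themselves, named here after their values were seen, were near WT: Nr1i2 (PXR) had 85.1 CPM in the Cyp27a1 KO and 93.0 CPM in WT, and Nr1i3 (CAR) had 92.2 CPM in the Cyp27a1 KO and 109 CPM in WT. Cyp2e1 had a log2 fold of -0.09 and Cyp1a2 had -0.10.

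The lists of conjugating enzymes differed from each other. Of 22 measured glutathione S-transferase list members, which attach glutathione to electrophiles, 8 were higher and 2 lower, with a median log2 fold of 0.65. Gstm3 had 1512 CPM in the Cyp27a1 KO and 7182 CPM in the DKO, against 1504 CPM in the Cyp3a KO and 51.3 in WT. The single knockouts were level with each other and the DKO was highest. Gsta1 had 90.0 CPM in the Cyp27a1 KO and 384 CPM in the DKO, against 35.2 CPM in the Cyp3a KO and 4.61 in WT. Gstp1, a male-predominant member named after its values were seen, ran the other way, with 982 CPM in the Cyp27a1 KO and 320 CPM in the DKO, against 1685 CPM in the Cyp3a KO and 2374 in WT. Of 15 measured sulfotransferase list members 3 were higher and 2 lower, with a median of -0.01. Sult2a7, a steroid and bile acid sulfotransferase gene, had 53.7 CPM in the Cyp27a1 KO and 157 CPM in the DKO, against 68.5 CPM in the Cyp3a KO and 0.622 in WT, the last from 29 counts. Its fold of 86.4 (60.0 to 129) therefore rests on a low WT count. Papss2, which makes the sulfate donor, was 2.01-fold higher (1.96 to 2.07), while Sult2a1 and Sult2a2 were called lower from 0.442 CPM and 0.361 CPM in the Cyp27a1 KO and 2.55 CPM and 2.14 CPM in WT.

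Ugdh, which makes the glucuronic acid donor, had 329 CPM in the Cyp27a1 KO and 657 CPM in the DKO, against 243 CPM in the Cyp3a KO and 110 in WT. Of 19 glucuronosyltransferase list members 4 were higher and 0 lower, among them Ugt1a9, which was 2.30-fold higher (2.24 to 2.37). Isoforms of the Ugt1a locus share their 3' exons, so the split of reads among them is uncertain. Carboxylesterases, which hydrolyse esters and amides, had 3 higher and 1 lower of 14, led by Ces2a with 1853 CPM in the Cyp27a1 KO and 4400 CPM in the DKO, against 3033 CPM in the Cyp3a KO and 607 in WT. Aldehyde, alcohol and retinoid dehydrogenases had 6 higher and 0 lower of 23. Aldh1a1, which oxidises retinal, had 2752 CPM in the Cyp27a1 KO and 3635 CPM in the DKO, against 2217 CPM in the Cyp3a KO and 798 in WT. The related Aldh1a7 was 3.95-fold higher (3.83 to 4.07), and the retinal reductase Rdh11 was 2.89-fold higher (2.73 to 3.06). In the list of 20 measured NRF2 targets the median log2 fold was 0.41, and only Nqo1, the quinone reductase, was called, with 9.78 CPM in the Cyp27a1 KO and 10.3 CPM in the DKO, against 3.34 CPM in the Cyp3a KO and 2.32 in WT.

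**Figure D3:**
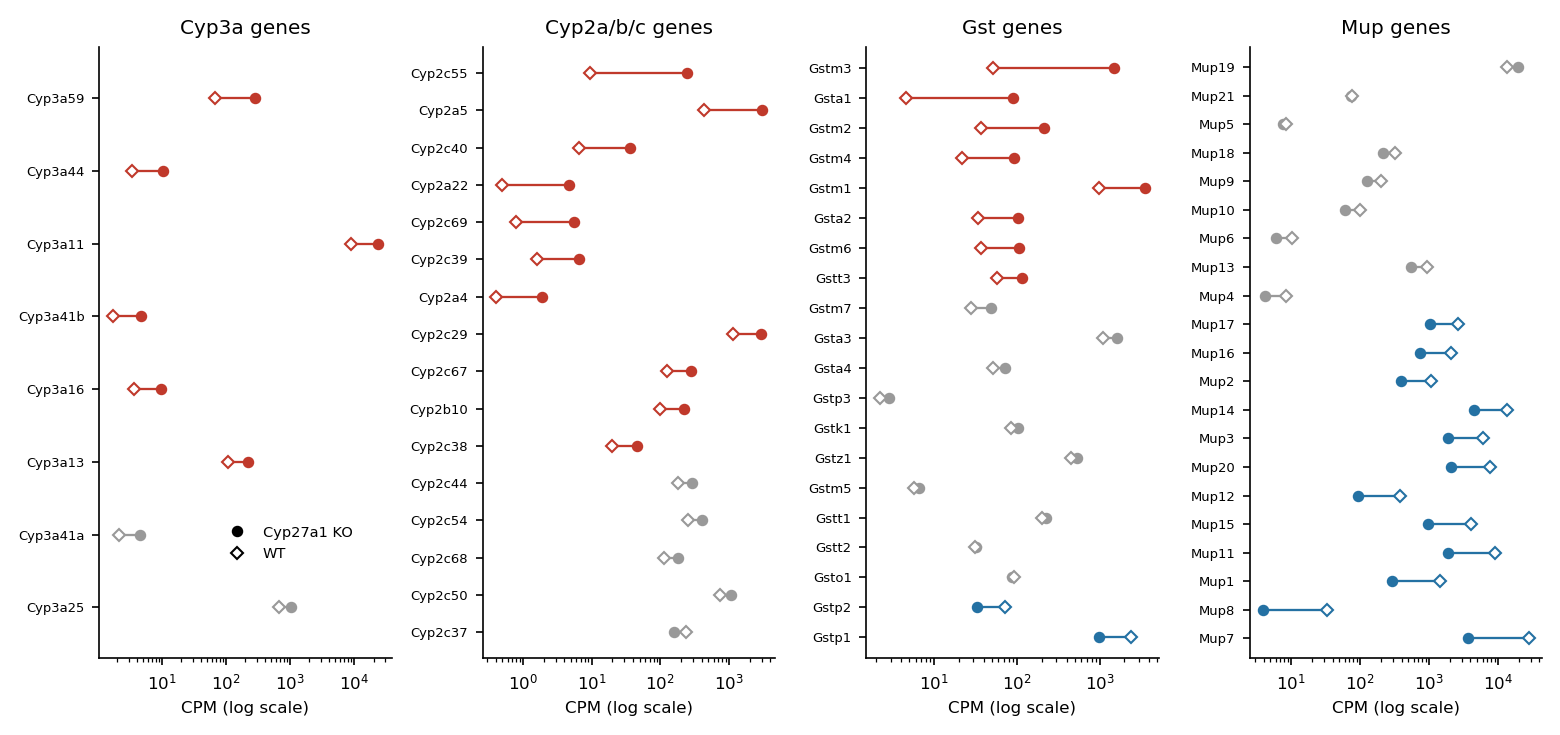
CPM on log axes of 4 gene families, with a filled circle for the Cyp27a1 KO and an open diamond for WT, 1 library each, joined by a line that is red where the gene was called higher, blue where called lower and grey otherwise. Most Cyp3a, Cyp2a, Cyp2c and Gst genes have the circle to the right, Gstp1 and Gstp2 have it to the left, and 12 of 21 Mup genes are blue.

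Cholesterol synthesis genes were in good part higher. Of 22 measured members from acetyl-CoA condensation to cholesterol, 11 were higher and 0 lower, with a median log2 fold of 1.03. Fdps, the farnesyl diphosphate synthase, had 474 CPM in the Cyp27a1 KO and 951 CPM in the DKO, against 431 CPM in the Cyp3a KO and 138 in WT. Idi1, the isopentenyl diphosphate isomerase, had 230 CPM in the Cyp27a1 KO and 1140 CPM in the DKO, against 433 CPM in the Cyp3a KO and 68.8 in WT. All 3 knockouts exceeded WT at both genes, the DKO by most. After squalene, Nsdhl was 2.72-fold higher (2.57 to 2.88), Cyp51, the lanosterol demethylase, was 2.54-fold higher (2.45 to 2.63), and Dhcr7, which makes cholesterol from 7-dehydrocholesterol, was 2.38-fold higher (2.28 to 2.48). Hmgcs1, the HMG-CoA synthase, had 198 CPM in the Cyp27a1 KO and 1589 CPM in the DKO, against 551 CPM in the Cyp3a KO and 119 in WT, and its log2 fold of 0.73 lay within the rule.

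The list of 19 SREBP2 regulators and sterol uptake genes had 0 higher, 0 lower and a median of -0.02, against 6 of 11 early and 5 of 11 late synthesis genes called higher.

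The promoters of these synthesis genes were searched in the same way. The CCAAT box, bound by NF-Y, lay on either strand in 16 of the 17 synthesis genes with a RefSeq promoter, against 37.4% of all promoters and 45.6% of those of genes called higher. The box did not separate called from uncalled synthesis genes. Ebp, Ggps1, Hmgcs1, Hsd17b7, Lbr, Mvd, Sc5d and Tm7sf2 held it and were not called, while Acat2 lacked it and was called higher. The short sterol response element TCACNCCAC was found in 1 of the 17, and its longer form, the same letters preceded by A, in 0. The 3 promoters below show CCAAT, or ATTGG where the box lies on the other strand, in capitals. They are Idi1 (chr13:8885356-8885655, plus strand), with 2 boxes, Nsdhl (chrX:72918271-72918570, plus strand), with 4, and Cyp51 (chr5:4104648-4104947, minus strand), with 1.
Idi1: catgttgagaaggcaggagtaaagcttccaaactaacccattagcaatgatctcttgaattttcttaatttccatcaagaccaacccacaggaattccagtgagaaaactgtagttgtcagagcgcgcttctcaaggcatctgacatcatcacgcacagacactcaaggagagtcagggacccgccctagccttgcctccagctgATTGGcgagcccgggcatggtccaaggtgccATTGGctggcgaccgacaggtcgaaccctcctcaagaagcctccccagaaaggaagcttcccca
Nsdhl: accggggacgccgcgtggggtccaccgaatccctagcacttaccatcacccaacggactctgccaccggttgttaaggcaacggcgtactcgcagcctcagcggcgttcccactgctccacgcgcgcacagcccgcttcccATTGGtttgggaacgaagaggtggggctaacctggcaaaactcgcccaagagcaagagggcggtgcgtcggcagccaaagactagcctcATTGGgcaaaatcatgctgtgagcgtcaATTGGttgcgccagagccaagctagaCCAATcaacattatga
Cyp51: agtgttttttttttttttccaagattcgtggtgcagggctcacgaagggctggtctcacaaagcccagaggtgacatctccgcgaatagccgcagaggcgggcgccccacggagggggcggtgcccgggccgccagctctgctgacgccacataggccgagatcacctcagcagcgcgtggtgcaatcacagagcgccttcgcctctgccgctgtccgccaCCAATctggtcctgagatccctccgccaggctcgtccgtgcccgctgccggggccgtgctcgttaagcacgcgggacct

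In all 15 motifs were searched on both strands, chosen after the values were seen, and a match describes letters in a 300-base window. The shares of all promoters holding the others were 13.6% for the TATA box TATAAA, 41.3% for the antioxidant response core TGANNNNGC and 12.4% for its longer form TGACNNNGC, which is contained in it. They were 1.24% for TCACNCCAC and 0.234% for the longer form with A before it. Among nuclear receptor repeats they were 0.381% for AGGNCA repeated after 1 base, 0.0700% for AGNTCA repeated after 3 bases, 0.125% for AGNTCA repeated after 4 bases and 0.0304% for TGANCT followed after 6 bases by AGNTCA; of these the repeat spaced by 4 lay in 1 of the 22 Cyp3a and Cyp2c promoters and the other 3 in 0. They were 0.00913% for the HNF1 motif, GTTAAT and ATTAAC with 1 base between, 8.30% for the STAT5 motif TTCNNNGAA, 7.15% for the E-box CACGTG and 0.612% for the EGR motif GCGTGGGCG. TATAAA lay in 15 of the 22 Cyp3a and Cyp2c promoters and in 0 of the 17 synthesis promoters. TGANNNNGC lay in 13 of 21 glutathione transferase promoters, 14 of 14 Mup promoters, 46.7% of promoters of higher genes and 54.0% of those of lower genes.

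Genes that make fatty acids were in part higher. Of 27 measured lipogenic genes 5 were higher and 0 lower, with a median of 0.33. Scd1, the stearoyl-CoA desaturase, had 9690 CPM in the Cyp27a1 KO and 10640 CPM in the DKO, against 3525 CPM in the Cyp3a KO and 3755 in WT, which split the livers by Cyp27a1 genotype. Thrsp, a lipogenic regulator, had the same split, with 503 CPM in the Cyp27a1 KO and 592 CPM in the DKO, against 225 CPM in the Cyp3a KO and 159 in WT. Elovl6, a fatty acid elongase, was 4.09-fold higher (3.80 to 4.40), Acss2, the acetyl-CoA synthetase, 3.05-fold higher (2.96 to 3.15), and Acly, the ATP citrate lyase, 2.26-fold higher (2.18 to 2.35). Cd36, a fatty acid transporter, had 136 CPM in the Cyp27a1 KO and 174 CPM in the DKO, against 37.8 CPM in the Cyp3a KO and 21.9 in WT. Fitm1, a lipid droplet forming protein gene, was high in 1 liver, with 71.0 CPM in the Cyp27a1 KO and 14.9 CPM in the DKO, against 20.9 CPM in the Cyp3a KO and 8.13 in WT. The 6 adipocyte markers, all below the filter, summed to 3.47 CPM in the Cyp27a1 KO and 0.351 CPM in the DKO, against 0.639 CPM in the Cyp3a KO and 0.386 in WT. The sum was thus highest in the Cyp27a1 KO, where Fitm1 was also highest, and lowest in the DKO, where Scd1, Thrsp and Cd36 were highest. Cfd, the adipsin gene, gave most of it, with 146 counts in the Cyp27a1 KO and 2 in the DKO, against 23 in the Cyp3a KO and 6 in WT, and on deposited TPM it passed the filter and was called higher. Retn, which encodes resistin, had 19 counts in the Cyp27a1 KO and 10 in the DKO, against 3 in the Cyp3a KO and 0 in WT, while Adipoq, which encodes adiponectin, had 2 counts in the Cyp27a1 KO and 0 in WT. The part of adipocyte RNA in the lipid gene differences was not tested.

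PPARalpha targets and fatty acid oxidation genes lay slightly below WT, with 1 higher and 5 lower of 35 and a median of -0.26. That median was -0.02 by TPM, on which the median gene stood at 0.17. Recentring TPM to the median log2 fold of the counts gave -0.19. Cyp4a14, a fatty acid omega-hydroxylase, had 325 CPM in the Cyp27a1 KO and 116 CPM in the DKO, against 582 CPM in the Cyp3a KO and 2185 in WT. Cyp4a10, its relative, had 747 CPM in the Cyp27a1 KO and 238 CPM in the DKO, against 853 CPM in the Cyp3a KO and 1711 in WT. WT was highest at both genes and the DKO lowest. In the ketogenesis list 0 of 8 genes were called. The lipid droplet genes Plin4 and G0s2 were called lower, with log2 folds of -1.23 and -1.16, and Apoa4, an intestinal and hepatic apolipoprotein, had -1.32.

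Genes known to differ between male and female mouse liver under growth hormone control were shifted. Of 25 measured male-biased genes 2 were higher and 9 lower, with a median log2 fold of -0.58, and of 27 measured female-biased genes 11 were higher and 4 lower, with a median of 0.83. The summed level of the female-biased list ran the other way, with 688 CPM in the Cyp27a1 KO and 2467 CPM in WT, and Cyp4a14, with 325 CPM in the Cyp27a1 KO and 2185 CPM in WT, makes up most of the WT sum. The lists also hold members of the Mup, P450 and sulfotransferase families. Hsd3b5, a male-predominant steroid dehydrogenase, had 10.9 CPM in the Cyp27a1 KO and 0.129 CPM in the DKO, against 139 CPM in the Cyp3a KO and 27.6 in WT. The 21 measured Mup genes, which encode pheromone-binding urinary proteins, summed to 38392 CPM in the Cyp27a1 KO and 2440 CPM in the DKO, against 79920 CPM in the Cyp3a KO and 91477 in WT. Of these 12 were lower and 0 higher. Mup7 had 3650 CPM in the Cyp27a1 KO and 17.2 CPM in the DKO, against 20285 CPM in the Cyp3a KO and 28047 in WT. Mup19 went against the family, with 19855 CPM in the Cyp27a1 KO and 13599 CPM in WT; these copies are nearly identical, so values of single Mup genes are uncertain.

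Sult1e1, the estrogen sulfotransferase, had 3.07 CPM in the Cyp27a1 KO and 27.1 CPM in the DKO, against 0.0999 CPM in the Cyp3a KO and 0.450 in WT. It was higher in both livers without Cyp27a1, and far higher in the DKO. In the growth hormone signalling list 2 of 17 were higher and 0 lower: Socs2 and Cish, feedback inhibitors induced by STAT5. Socs2 had 34.4 CPM in the Cyp27a1 KO and 4.49 CPM in the DKO, against 7.97 CPM in the Cyp3a KO and 7.85 in WT. Cish had 34.0 CPM in the Cyp27a1 KO and 12.1 CPM in the DKO, against 2.80 CPM in the Cyp3a KO and 13.7 in WT. The Cyp27a1 KO liver was the highest of the 4 at both genes.

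Iron, amino acid and zonation genes held single large differences. Hamp, which encodes the iron hormone hepcidin, had 112 CPM in the Cyp27a1 KO and 1.40 CPM in the DKO, against 272 CPM in the Cyp3a KO and 642 in WT, and Id1, a BMP target like Hamp, was 2.37-fold lower (2.01 to 2.80). Csad, an enzyme of the path to taurine, which is conjugated to bile acids, had 713 CPM in the Cyp27a1 KO and 369 CPM in the DKO, against 309 CPM in the Cyp3a KO and 275 in WT. Cth, the cystathionine gamma-lyase that supplies cysteine, was 2.07-fold higher (2.04 to 2.11), and Bhmt, the betaine-homocysteine methyltransferase, had 7846 CPM in the Cyp27a1 KO and 3997 CPM in WT, a log2 fold of 0.97 just within the rule. In total 4 of 54 amino acid and one-carbon genes were higher (7.41%) and 1 was lower (1.85%), beside 2.44% and 1.36% of all measured genes. Of 31 pericentral genes 7 were higher (22.6%) and 1, Cyp27a1 itself, was lower (3.23%), with a median of 0.17. Cyp7a1, Cyp2c29 and Car3, named above, were among the 7. Of 27 periportal genes 1 was higher (3.70%) and 3 were lower (11.1%), with a median of -0.14. The periportal median was 0.04 by TPM and -0.13 on recentred TPM. For the same 31 genes the pericentral median was 0.35 by TPM. Over the 29 of them with a mean of at least 1 TPM it was 0.66, and 0.50 on recentred TPM. Oat, the ornithine aminotransferase, had 1988 CPM in the Cyp27a1 KO and 1883 CPM in the DKO, against 1678 CPM in the Cyp3a KO and 572 in WT. Rhbg, an ammonia transporter, had 49.2 CPM in the Cyp27a1 KO and 21.5 CPM in the DKO, against 8.79 CPM in the Cyp3a KO and 11.8 in WT. Glul, the glutamine synthetase of the innermost pericentral cells, named after its values were seen, had 763 CPM in the Cyp27a1 KO and 774 CPM in WT.

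Immediate early, acute phase and immune lists each held a few calls. Of 21 immediate early genes 4 were higher and 0 lower. Egr1, a transcription factor induced within minutes of stimulation, had 121 CPM in the Cyp27a1 KO and 80.3 CPM in the DKO, against 92.6 CPM in the Cyp3a KO and 15.1 in WT. Myc, the growth regulator, had 30.4 CPM in the Cyp27a1 KO and 35.0 CPM in the DKO, against 12.96 CPM in the Cyp3a KO and 9.74 in WT. WT was the lowest liver at both genes. Of 33 acute phase genes 3 were higher and 4 lower: Orm3, an orosomucoid, was 6.31-fold higher (5.22 to 7.69), Saa4 2.39-fold lower (2.34 to 2.43) and Il1r1, the interleukin-1 receptor, 3.17-fold lower (3.04 to 3.30). The 38 interferon response genes had 1 higher and 0 lower with a median of 0.52, which is 2.63% called higher beside 2.44% of all measured genes, and 3 of 11 guanylate-binding protein genes were higher. H2-Q1, a non-classical MHC class I gene, had 39.6 CPM in the Cyp27a1 KO and 63.4 CPM in the DKO, against 4.19 CPM in the Cyp3a KO and 4.16 in WT, a split by Cyp27a1 genotype. H2-Q genes are close copies, and 1 further member, H2-Q7, was 2.29-fold lower (2.13 to 2.45).

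Of the 62 pathway lists 12 had 0 called genes in either direction. These were the ribosomal protein, nuclear respiratory chain, mitochondrial genome, complement and coagulation, cell cycle, p53, heat shock, endoplasmic reticulum chaperone, glucocorticoid, Arntl-phase clock, ketogenesis and SREBP2 regulator lists. The 62 ribosomal protein genes had a median of -0.02 and the 48 respiratory chain genes -0.04. With 3.81% of all measured genes called, 0 calls are usual in a short list, such as the 7 Arntl-phase clock or 8 ketogenesis genes. Another 19 lists had higher calls alone, 4 had lower calls alone and 27 had both.

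**Figure D4:**
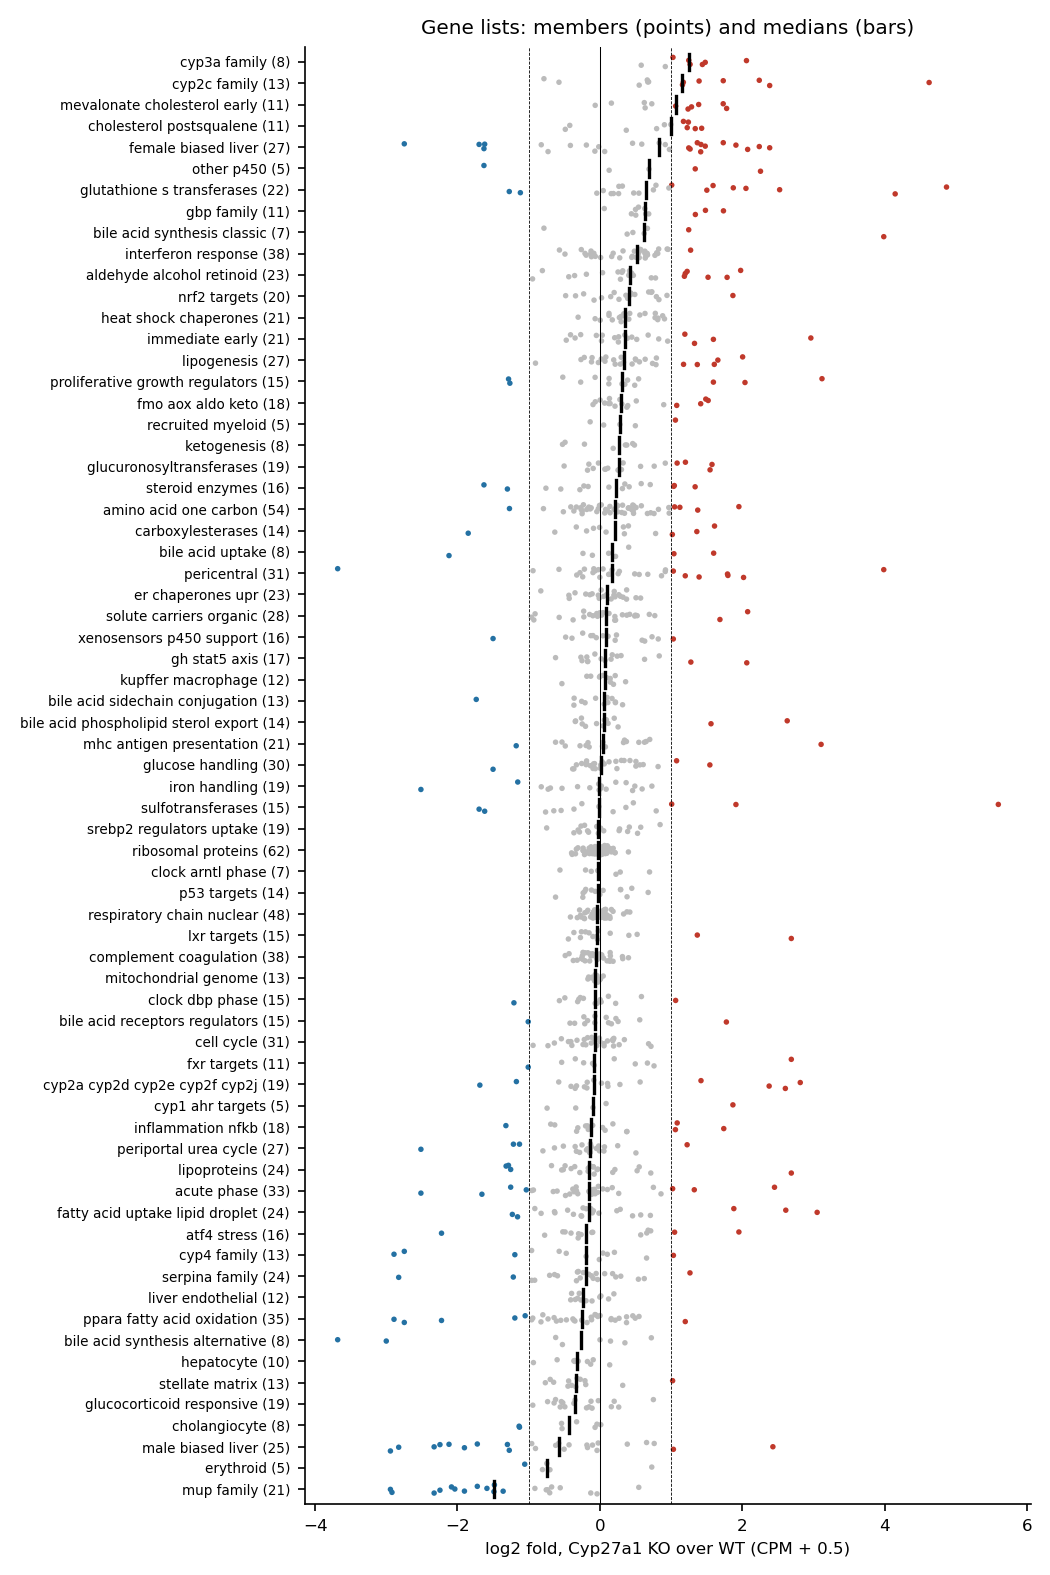
Log2 folds of the Cyp27a1 KO over WT for the members of each list with at least 5 measured genes, sorted by list median (black bars); red points were called higher, blue points lower, and the number of measured members follows the name. The Cyp3a list has the highest median at 1.26 and the Mup list the lowest at -1.48, and the ribosomal protein and respiratory chain points cluster at 0.

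Markers of other liver cells were compared to describe the makeup of the tissue pieces. The 12 Kupffer cell markers summed to 348 CPM in the Cyp27a1 KO and 322 CPM in WT with 0 called, and the 12 endothelial markers summed to 286 CPM in the Cyp27a1 KO and 336 CPM in WT with 0 called. Stellate and matrix markers summed to 217 CPM in the Cyp27a1 KO and 266 CPM in WT, with 1 of 13 called, Acta2, which was higher at 1.65 CPM in the Cyp27a1 KO and 0.558 CPM in WT. The Acta2 call was lost on TPM and on recentred TPM (log2 fold 0.85). It was also lost with a mean of at least 5 CPM and with a pseudocount of 2 (0.51). Cholangiocyte markers summed to 47.3 CPM in the Cyp27a1 KO and 61.5 CPM in WT, with 2 of 8 called lower, Sox9 and Krt23, and erythroid markers summed to 448 CPM in the Cyp27a1 KO and 608 CPM in WT. Of 15 lymphocyte markers 2 were measured. Ighm, the IgM heavy chain, had 14.6 CPM in the Cyp27a1 KO and 4.91 CPM in WT, whereas the other measured marker had a log2 fold of -0.12. The adipocyte and muscle lists had 0 members above the filter; the adipocyte counts are given with the lipid genes. The part of these markers in the differences above was not tested.

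The 20 largest folds also held genes with roles outside metabolism. Robo1, an axon guidance receptor, had 22.95 CPM in the Cyp27a1 KO and 35.0 CPM in the DKO, against 17.3 CPM in the Cyp3a KO and 2.19 in WT. Lgals1, which encodes galectin-1, had 40.4 CPM in the Cyp27a1 KO and 16.9 CPM in the DKO, against 7.29 CPM in the Cyp3a KO and 4.20 in WT. Prss8, the serine protease prostasin, had 22.3 CPM in the Cyp27a1 KO and 51.8 CPM in the DKO, against 7.27 CPM in the Cyp3a KO and 2.40 in WT. Atp6v0d2, a vacuolar proton pump subunit, had 10.7 CPM in the Cyp27a1 KO and 83.5 CPM in the DKO, against 4.31 CPM in the Cyp3a KO and 0.944 in WT. At these 4 genes both livers without Cyp27a1 lay above WT, and for Lgals1, Prss8 and Atp6v0d2 they also lay well above the Cyp3a KO. Fam19a2 had 476 counts in the Cyp27a1 KO and 4 in WT, so its ratio of 111 has a counting interval of 43.2 to 411. Nebl, a muscle and adhesion protein gene, had 7.01 CPM in the Cyp27a1 KO and 17.8 CPM in the DKO, against 46.3 CPM in the Cyp3a KO and 0.429 in WT. Among the 20 smallest folds, Avpr1a, the hepatic vasopressin receptor, had 8.63 CPM in the Cyp27a1 KO and 3.14 CPM in the DKO, against 18.2 CPM in the Cyp3a KO and 36.8 in WT. Hdc, the histidine decarboxylase, was 3.65-fold lower (3.17 to 4.21), and Fam107a was 5.98-fold lower (5.36 to 6.70).

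The DKO against the Cyp3a KO is a second loss of Cyp27a1, measured in 2 other animals and sharing no library with the first pair, but on a Cyp3a-deleted background. There 789 genes were called (6.72%), 472 of them higher (4.02%) and 317 lower (2.70%). Of the 287 genes higher in the Cyp27a1 KO than in WT, 116 were also higher in the DKO than in the Cyp3a KO, which is 40.4% of the first list and 24.6% of the second, and 16 were lower. Of the 160 lower genes 62 were lower again, 38.8% of the first list and 19.6% of the second, and 12 were higher. Named genes with equal direction of call in both pairs included Cyp7a1, Abcc4, Gstm3, Gsta1, Cyp2a5, Scd1, Cd36, H2-Q1, Cyp26a1, Pltp, Slco1a1, Hamp, Mup7 and Cyp4a14. Genes near 0 in the second pair included Egr1, with a log2 fold of -0.20 for the DKO over the Cyp3a KO, Oat, with 0.17, Onecut1, with 0.11, and Abcc3, with 0.16. The log2 folds of the second pair for the 287 higher genes had a median of 0.75, and for the 160 lower genes -0.70, against -0.02 for all measured genes.

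**Figure D5:**
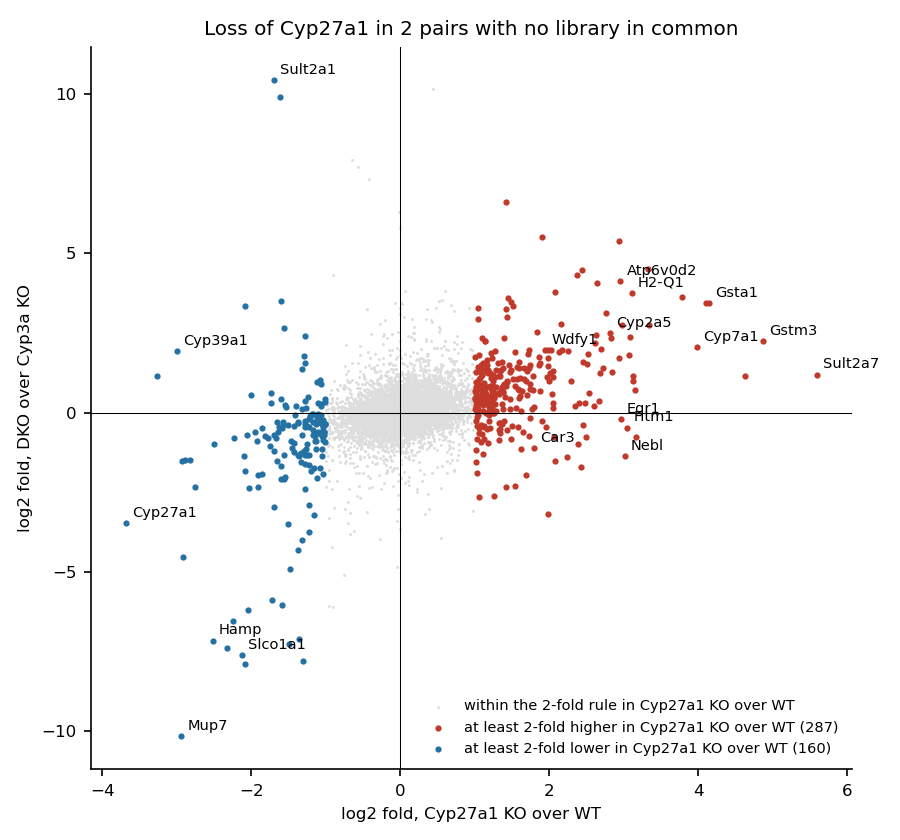
Log2 fold of the DKO over the Cyp3a KO (vertical) against that of the Cyp27a1 KO over WT (horizontal) for 11743 genes, 1 library per genotype; red and blue points were called higher and lower in the Cyp27a1 KO. Cyp7a1, Gstm3 and Gsta1 lie at upper right, Slco1a1, Hamp and Mup7 at lower left, and Sult2a1 and Cyp39a1 at upper left.

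Genes close to the deleted locus were examined for shared differences. Within 10 Mb of Cyp27a1 on chromosome 1, 5 of 64 other measured genes were called (7.81%), against 28 of 681 genes on the whole chromosome (4.11%) and 3.81% of all measured genes. In the narrower window of 5 Mb 2 of 42 were called (4.76%), and within 20 Mb 9 of 185 (4.86%). Wdfy1, an endosomal adaptor of Toll-like receptors (chr1:79702262-79776143, minus strand), had 33.2 CPM in the Cyp27a1 KO and 34.5 CPM in the DKO, against 8.55 CPM in the Cyp3a KO and 8.26 in WT. Erbb4, a receptor tyrosine kinase, had 0.120 CPM in the Cyp27a1 KO and 0.0554 CPM in the DKO, against 3.81 CPM in the Cyp3a KO and 1.501 in WT. At both genes the livers split by Cyp27a1 genotype. Erbb4 passed the filter through the Cyp3a KO level alone, and its call was lost when the filter used the Cyp27a1 KO and WT libraries only, with a pseudocount of 2 (log2 fold -0.72) and on TPM (-0.58). Serpine2, a protease inhibitor whose gene neighbours Wdfy1, had 2.27 CPM in the Cyp27a1 KO and 1.26 CPM in the DKO, against 4.39 CPM in the Cyp3a KO and 19.1 in WT, and Igfbp5 and Chpf did not separate the livers by Cyp27a1 genotype. Flanking sequence from the targeted cells and the loss of Cyp27a1 cannot be told apart at these genes. In 210 bins of 10 Mb over the genome the largest shares of called genes were at the Mup cluster (chromosome 4, 60 to 70 Mb), with 3 higher and 14 lower of 48, and at the Cyp2c cluster (chromosome 19, 30 to 40 Mb), with 11 higher and 1 lower of 52.

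The deposited TPM of the same 2 libraries gave a similar picture. Log2 folds from counts and from TPM had a Pearson correlation of 0.944 across 11743 genes, which are not independent replicates. Of the 287 genes called higher by counts 264 were also higher by TPM (92.0%), and of the 160 called lower 96 were also lower (60.0%). Called genes with the opposite sign by TPM numbered 0. Calls at the edge of the rule depended on the scale: Krt23 had a log2 fold of -1.13 by counts and -0.97 by TPM, and G0s2 had -1.16 by counts and -0.99 by TPM. Both kept their calls on recentred TPM.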

How the data were processed

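Bulk liver RNA was sequenced from 4 mice, 1 library per genotype. Per the submitters' processing notes, Trimmomatic 0.33, HISAT2 2.0.5, kallisto 0.43.1 and mm10 were named; neither the annotation nor the tool behind the counts is stated in the labels. The authors deposited 1 table of estimated counts per gene, of which 57.7% of values were whole, and 1 table of TPM per gene. Estimated counts were rounded, 1 row without a gene was dropped, and counts were scaled to CPM with edgeR 4.0.16 (TMM) in R 4.3.3. Log2 folds used a pseudocount of 0.5 CPM, whereas printed folds are CPM ratios without it. Exact (Clopper-Pearson) 95% intervals cover counting error alone, because each genotype has 1 library. Reads carried no molecular identifiers, and the intervals take every count as separate. A floor of 3 counts was worked out for each library but entered no call. No test across samples is possible with 1 library a side; the rule was tested on simulated data.

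Bile acid genes, the 20 largest and 20 smallest folds with a mean of at least 5 CPM, the 10 largest gains and losses in CPM, up to 6 called genes and the most abundant gene of each other list, and called genes within 10 Mb of Cyp27a1 were named; genes outside this rule were named after their values were seen, and the text says so. The genes and the 74 lists were chosen with earlier results of these data known. Gene positions are from GENCODE M21 (mm10) by symbol, for 11508 of the 11743 genes, and promoters are from RefSeq (GRCm38.p6). Python 3.11.15, scipy 1.17.1, pandas 2.3.3 and matplotlib 3.10.9 were used, and DESeq2 1.42.0 for median-of-ratios scaling. Alternatives were other scalings, filters, pseudocounts, folds and the TPM table.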

Additional observations from a re-analysis of the deposited data

Results flagged for a closer look

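At 13 genes that were named for the Cyp27a1 KO against WT, the 2 pairs of livers that differ in Cyp27a1 gave calls in opposite directions. Each value below is the log2 fold of the DKO over the Cyp3a KO minus that of the Cyp27a1 KO over WT, and with 1 library per genotype the difference was not tested.

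The sulfotransferases Sult2a1 and Sult2a2 gave 12.1 and 11.5, having been called lower in the Cyp27a1 KO from levels below 3 CPM and standing at 728 CPM and 595 CPM in the DKO, against 0.0200 CPM and 0.120 CPM in the Cyp3a KO. Sult2a1 had 1 count in the Cyp3a KO and Sult2a2 had 6, so the size of both differences depends on the pseudocount of 0.5 CPM. Cyp39a1 gave 4.94, with log2 folds of 1.94 in the DKO pair and -3.00 in the Cyp27a1 KO pair. Tff3, a secreted trefoil peptide, gave 2.85, and Apoa4 gave 2.68. At these 5 genes the DKO was above the Cyp3a KO while the Cyp27a1 KO was below WT. The calls of Sult2a1, Sult2a2 and Tff3 over WT were lost with a pseudocount of 2. That of Tff3 was also lost with a mean of at least 5 CPM.

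The other 8 genes were higher in the Cyp27a1 KO than in WT and lower in the DKO than in the Cyp3a KO. Nebl gave -4.37, Moxd1, a male-biased monooxygenase-like gene, gave -4.14, Serpina7, which encodes thyroxine-binding globulin, gave -3.87, and Bhlhe41, a clock repressor, gave -3.71. Bhlhe41 had 0.904 CPM in the Cyp27a1 KO and 0.172 CPM in WT and passed the filter through the Cyp3a KO; its call over WT was lost with the filter over the Cyp27a1 KO and WT libraries only, on TPM (log2 fold 0.57) and with a pseudocount of 2 (0.42). Cyp2c69 gave -3.63, Cyp4a12b gave -2.94, Car3, the cytosolic carbonic anhydrase of hepatocytes, gave -2.91, and Acta2 gave -2.18. The calls of Moxd1 and Acta2 over WT were lost on TPM, on recentred TPM and with a mean of at least 5 CPM. That of Acta2 was also lost with a pseudocount of 2. Car3 was the most abundant, with 3185 CPM in the Cyp27a1 KO and 1449 CPM in the DKO, against 3147 CPM in the Cyp3a KO and 920 in WT.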

How the results depend on the processing

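The count of 287 higher genes was 446 on deposited TPM, 65 at a 4-fold and 809 at a 1.5-fold threshold. The count of 160 lower genes was 98 with a mean of at least 5 CPM, 96 with a pseudocount of 2, 23 at 4-fold and 583 at 1.5-fold. Leaving out the counting interval left both counts unchanged, at 287 and 160. The share of higher calls, 64.2%, was 70.9% with scaling to the library total, 77.6% on TPM, 73.9% at 4-fold and 58.1% at 1.5-fold. Of 177 named genes that were called, 40 missed the rule under at least 1 alternative and 0 changed direction: 15 on TPM, 27 with a pseudocount of 2, 23 with a mean of at least 5 CPM and 4 with scaling to the library total (Acot1, Hbb-bt, Nr0b2 and Saa3). A stricter threshold or filter passes fewer genes by construction. With TPM recentred to the median log2 fold of the counts, 315 genes were higher and 171 lower, and 64.8% of calls were higher. For the other settings the cause was not tested. The median gene stood at 0.17 on TPM and 0.08 with library total scaling. Genes below 5 CPM carry wide intervals, and 1 animal per genotype leaves the spread between animals unmeasured. No paired analysis was possible because each genotype has 1 library and the result comes from no test.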
